A study of Mus musculus with 12 samples.

Results

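Bipotential mouse embryonic liver (BMEL) cells grown as aggregates were compared with the same cells in basal culture, gene by gene, on 8 of the 12 arrays of the study. The samples were chosen by their titles: 4 arrays carry the aggregate label and 4 the basal label. BMEL cells are immortal lines that can be led towards hepatocytes or bile duct cells in culture. Both lines used, 9A1 and 14B3, came from the liver of 14 dpc embryos of CBA/J x C57Bl/6J mice, carry no transgene according to the labels, and were each measured in basal culture (2 arrays) and after 5 days as aggregates (2 arrays). Each line is a single isolate, so the lines stand for themselves and not for a population of embryos. The remaining 4 arrays, from cells in Matrigel, entered the fit only as a source of spread and are not described. Nothing in the labels tells whether duplicates were separate cultures, and the p-values therefore reflect only the scatter among these arrays, part or all of which may be technical.

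Cells that leave a dividing state usually turn down the machinery that copies DNA and builds ribosomes, since ribosome production is among the costliest activities of a growing cell. Hepatocytes and the absorptive cells of the small intestine both derive from endoderm, take up nutrients or bile acids through a polarised surface, burn fatty acids in mitochondria and peroxisomes, and export triglyceride in lipoprotein particles. Those programs, rather than the single largest changes, are described below in the order of protein synthesis, cell division, energy, secretion, cell shape, gut and liver functions, and signalling.

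Values were signal intensities of 12393 genes on a log2 scale, with an array median of 268 to 281 before the log. A gene is said to have risen or fallen where limma's test over all genes gave a Benjamini-Hochberg adjusted p under 0.05; otherwise it had no call. In all, 46.3% of the genes were called, 22.9% as higher and 23.4% as lower in aggregates, and these percentages are the background for each count that follows. Calls were mostly small, since 69.1% of the rises and 63.4% of the falls were under 1 log2 unit, and the arrays of the cultures did not overlap for 2476 of the 2841 rises and 2579 of the 2894 falls. Pearson's r across genes was 0.970 to 0.992 between arrays of a culture and 0.834 to 0.895 between arrays of different cultures. The median change of all genes was 0.10, and the authors' normalisation sets arrays to a common distribution, so every change is relative to the other genes on the array. In bulk RNA, fewer cells of a type and less RNA per cell cannot be told apart. A level can be background where it lies under the 90th percentile of 41 genes of unrelated tissues, which was 8.32 in basal and 8.50 in aggregate culture, and a fold that starts or ends there may be too small.

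The label of the cells was set against markers. Of 13 hepatoblast and hepatocyte markers 8 rose and 2 fell, with a median change of 0.65. In both cultures 4 of them lay at background, among them 3 of the rises, Prox1, Apoa2 and Apoh. The summed intensity of the list was 36990 to 43588 in basal and 45652 to 75600 in aggregate arrays. Hnf4a, a nuclear receptor that marks hepatocytes and gut epithelium, was at 11.3 to 11.8 in basal and 12.4 to 12.7 in aggregate arrays. Foxa2, an endoderm factor, fell by 1.51. Markers of blood cells, macrophages, endothelium, stellate cells and fibroblasts were mostly dim. In both cultures 12 of 15 blood cell, 11 of 13 macrophage, 11 of 14 endothelial and 14 of 15 stellate cell and fibroblast markers lay at background, and at most 2 members of each list rose and 1 fell. With the replicate block, a fit in which arrays of a line that share a replicate number form a block, 6 blood cell, 4 macrophage and 3 stellate cell markers rose, and 5 of the 41 genes of unrelated tissues did, against 3 without it. The called markers above background in at least 1 culture were Csf1r, the macrophage growth factor receptor, which rose by 1.48 (2.21 in 9A1, 0.75 in 14B3), the monocyte receptor Cd14, which fell by 0.68, the T cell receptor chain Cd3e, which rose by 0.43, and Ets1, an endothelial transcription factor, which fell by 2.83. Among 13 markers of small intestine and colon epithelium 7 rose and 1 fell, and their summed intensity went from 4149 to 6062 in basal to 26863 to 33169 in aggregate arrays. In both cultures 6 of the 13 lay at background, among them Clca1, which rose, and Defa3, which fell. Of 8 bile duct markers 3 rose and 3 fell (1 rose without basal 14B3 replicate 1 or aggregate 14B3 replicate 1), and of 8 mesothelial markers 0 rose and 2 fell. In each of these lists 3 members lay at background in both cultures, and the brightest was at 13.59 in basal culture. Summed bile duct intensity was 19504 to 23355 in basal and 15177 to 17772 in aggregate arrays. The mesothelial sum was 19224 to 22860 in basal and 16313 to 18172 in aggregate arrays. The part of any change in cell make-up in the results below was not tested.

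To cover functions broadly, 36 gene lists were described, of which 17 held more rises than falls and 19 more falls than rises. The plot of calls per list gives them all, ordered by median change.

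**Figure D1:**
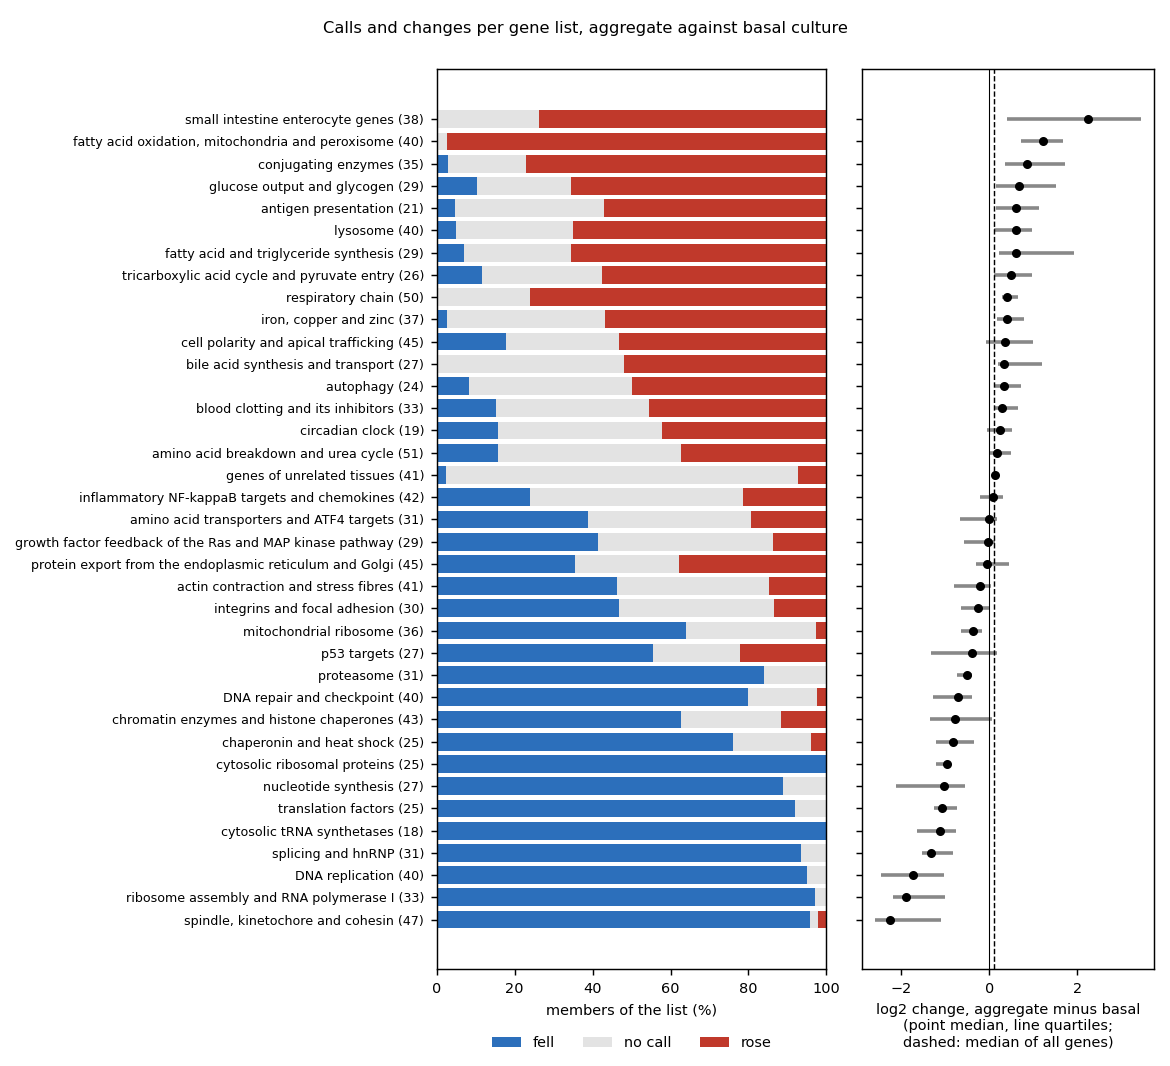
Left, the percentage of measured members (their number in brackets) that fell, had no call or rose in 36 function lists and the list of unrelated tissues; right, the median log2 change of each list with its quartiles, beside the median of all genes (dashed, 0.10). Spindle, ribosome assembly, DNA replication and splicing genes lie lowest, with medians of -2.26 to -1.32, and enterocyte and fatty acid oxidation genes highest, at 2.24 and 1.22.

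The machinery that makes protein was lower in aggregates at every step listed. All 25 measured cytosolic ribosomal protein genes fell, with a median change of -0.97, and so did 32 of 33 genes of ribosome assembly and RNA polymerase I (median -1.89), 23 of 25 translation factors (median -1.08) and all 18 cytosolic tRNA synthetases (median -1.11). No member of these 4 lists rose. Nop56, a core protein of the box C/D particles that methylate ribosomal RNA, was at 11.24 and 11.12 in basal 9A1, 11.39 and 11.44 in basal 14B3, 8.50 and 8.44 in aggregates of 9A1, and 8.80 and 8.62 in aggregates of 14B3. The groups lie more than 2 log2 units apart, and the gene fell 6.54-fold (log2 change -2.71 ± 0.11, SE, adjusted p = 3.01e-09). Of its particle partners Nop58 fell by 2.80 and the rRNA methylase Fbl by 2.10, and of the pseudouridylation particle Nhp2 fell by 2.59 and Gar1 by 2.38, whereas Nop10, the smallest subunit of that particle, was at -0.13 with no call. Pes1, Bop1 and Wdr12, which form a complex needed for the large ribosomal subunit, fell by 1.98, 0.96 and 1.89, and 4 of 4 RNA polymerase I subunits fell by 0.87 to 1.07.

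Rpsa, the ribosomal protein that also served as a laminin receptor in older naming, was among the genes with the largest loss of linear signal: 13.64, 13.71, 13.80 and 13.86 in the basal arrays against 11.88, 11.65, 12.03 and 12.20 in the aggregates. It fell 3.52-fold (-1.81 ± 0.10, SE, adjusted p = 2.61e-08), and the groups did not overlap. Most ribosomal proteins moved less, as Rps18 (-1.07) and Rpl35 (-1.43) did. Ribosomal protein genes have many processed copies in the genome, so their probe sets can share signal with them and single values are uncertain. Npm1, the nucleolar chaperone nucleophosmin, fell by 2.20. Among initiation factors all 6 measured subunits of eIF3, the scaffold of the small subunit, fell by 0.998 to 1.58, and the helicase gene Eif4a1 fell by 1.41. The synthetases for valine (Vars) and lysine (Kars) fell by 1.97 and 1.96.

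Folding and splicing factors followed the same direction. Of 25 chaperonin and heat shock genes 19 fell and 1 rose (median -0.82). All 8 subunits of the CCT ring, the chamber in which actin and tubulin fold, fell within a narrow range of 1.22 to 1.64. Cct5 was at 12.48, 12.46, 12.54 and 12.54 in the basal arrays and at 10.71, 10.72, 11.10 and 10.95 in the aggregates, which do not overlap (-1.64 ± 0.09, SE, adjusted p = 4.99e-08). Dnajb1, a heat-inducible co-chaperone, was the member that rose, by 0.38 (2 rose without aggregate 14B3 replicate 2). Of 31 splicing and hnRNP genes 29 fell and 0 rose (median -1.32), among them the Sm ring genes Snrpg and Snrpd3 at -1.95 and -1.93. In the proteasome 26 of 31 genes fell and 0 rose, with a smaller median of -0.51. The ring subunit Psma7 fell by 0.85 and the lid subunit Psmd7 fell by 1.08. The immunoproteasome catalytic subunit Psmb10 went the other way. Its level was 9.43, 9.42, 9.63 and 9.45 in basal and 10.58, 11.07, 11.18 and 11.48 in aggregate arrays (1.59 ± 0.13, SE, adjusted p = 1.2e-06), with no overlap. Psmb7, the constitutive subunit whose place Psmb10 takes, fell by 0.74. The other immunoproteasome subunits, Psmb8 and Psmb9, rose by 0.61 and 0.87.

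Genes of cell division fell as broadly. Of 40 DNA replication genes 38 fell (median -1.73), of 27 nucleotide synthesis genes 24 (median -1.03), of 47 spindle, kinetochore and cohesin genes 45 (median -2.26) and of 40 DNA repair and checkpoint genes 32 (median -0.71). The last 2 lists held 1 rise each and the first 2 none. The rise in the spindle list was lost without any 1 of 5 arrays (basal 9A1 replicate 1, basal 14B3 replicate 1, basal 14B3 replicate 2, aggregate 9A1 replicate 1 or aggregate 14B3 replicate 1), and 2 repair genes rose with the replicate block. All 6 genes of the Mcm2-7 ring, the helicase that opens DNA at origins, fell by 1.60 (Mcm3) to 3.45 (Mcm5), and Dbf4, the activator of the kinase that fires origins, fell by 3.71. Mcm6 was at 11.35, 11.36, 11.68 and 11.26 in basal and 9.98, 8.94, 9.68 and 9.28 in aggregate arrays, without overlap (-1.94 ± 0.20, SE, adjusted p = 5.58e-06). Pcna, the sliding clamp of the polymerases, was at -0.14 with no call. The 4 measured enzymes of purine ring synthesis, Ppat, Gart, Paics and Adsl, fell by 1.79 to 2.64, and the salvage kinase Tk1 by 2.74.

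Among mitotic genes the cytokinesis scaffold Anln fell by 4.12 and the centromeric histone Cenpa by 3.58. Cdc20, the activator of the anaphase-promoting complex, was at 11.65, 11.22, 11.25 and 11.22 in basal and 8.33, 7.99, 8.83 and 8.59 in aggregate arrays and fell 7.47-fold (adjusted p = 7.41e-09), again without overlap. All 5 condensin subunits measured fell, from -0.71 (Ncapg) to -3.49 (Smc2). Cohesin moved less: Smc1a, Smc3, Rad21 and Stag1 fell by 0.81 to 1.61, and Stag2, the alternative of Stag1, was at 0.04 with no call. Tipin, which protects stalled forks, fell by 3.47.

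Promoters of some of these genes are printed because the replication and spindle lists held short motifs more often than the tested genes as a whole. The choice of members did not use these motifs. The sequences are RefSeq promoters of build GRCm38.p6, 300 bases from 250 before to 50 after the first start listed for a gene, and each stretch below ends at the base before that start. Searched on both strands were the E2F-type motifs TTTGGCGC and TTTCCCGC, the cell cycle homology element TTTGAA and the box CCAAT. Matches stand in capitals, on either strand, and no matches overlap in the stretches shown. The first pair are replication genes and the other stretches mitotic genes.
Mcm6, chr1:128359706-128359825, minus strand: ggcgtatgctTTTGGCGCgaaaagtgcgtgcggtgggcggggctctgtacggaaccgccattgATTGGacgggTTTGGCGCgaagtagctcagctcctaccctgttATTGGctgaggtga
Cdc6, chr11:98908001-98908150, plus strand: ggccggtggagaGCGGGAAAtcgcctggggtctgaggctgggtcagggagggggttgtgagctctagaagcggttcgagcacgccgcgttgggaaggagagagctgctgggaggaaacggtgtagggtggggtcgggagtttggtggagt
Cdc20, chr4:118437344-118437463, minus strand: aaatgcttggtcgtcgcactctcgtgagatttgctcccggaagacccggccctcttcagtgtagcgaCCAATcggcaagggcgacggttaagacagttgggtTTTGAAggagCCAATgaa
Kif11, chr19:37376262-37376381, plus strand: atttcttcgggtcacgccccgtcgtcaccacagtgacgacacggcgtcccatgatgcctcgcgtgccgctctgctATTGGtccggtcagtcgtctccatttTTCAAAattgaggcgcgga
Kif22, chr7:127042421-127042520, minus strand: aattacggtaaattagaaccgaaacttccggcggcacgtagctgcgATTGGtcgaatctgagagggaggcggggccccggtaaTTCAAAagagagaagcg

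In the Mcm6 stretch the E2F-type motif lies 110 and 47 bases before the start. The stretches printed are examples that hold a match, so they do not stand for their lists. In the mitotic stretches shown TTTGAA lies 17 to 19 bases before the start with a CCAAT box 45 to 54 bases before it. Positions were not compared over the other promoters of the lists. Cdc6, which loads the helicase, fell by 2.85, and the spindle motors Kif11 and Kif22 fell by 1.56 and 2.40. Of the 31 replication genes that fell and had a promoter in the table, 11 held either E2F-type motif, 35.5%, against 2.67% of the 9882 tested genes with a promoter. Among 39 spindle genes that fell, 24 held TTTGAA, 61.5% against 12.98%, and 21 held it together with CCAAT, 53.8% against 5.16%. TTTGAA stood in 12.9% of the replication promoters, near the background, and in 13.9% of the promoters of all 2380 genes that fell and had one. Over all 27025 genes of the promoter table TTTGAA was found in 18.1%, TTTCCCGC in 1.11% and TTTGGCGC in 0.537%. These shares are a description without a test, and a match is not a bound site.

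Chromatin genes mostly fell, with an exception in Polycomb repressive complex 2. Of 43 chromatin enzymes and histone chaperones 27 fell and 5 rose, with a median of -0.77; 3 rose when basal 9A1 replicate 1, basal 9A1 replicate 2, basal 14B3 replicate 1 or aggregate 9A1 replicate 1 was left out. Ezh2, the catalytic subunit of Polycomb repressive complex 2 typical of dividing cells, was at 10.89, 10.69, 10.76 and 10.58 in basal and 9.27, 8.39, 9.46 and 9.50 in aggregate arrays (-1.57 ± 0.17, SE, adjusted p = 8.06e-06). Ezh1, its paralog typical of resting cells, was at 7.52, 7.81, 7.95 and 8.05 in basal and 8.71, 8.90, 8.89 and 8.93 in aggregates (1.03 ± 0.11, SE, adjusted p = 8.89e-06). The basal level of Ezh1 may be background. Neither gene's groups overlapped, and the partners Eed and Suz12 fell by 1.07 and 0.96. The maintenance methylase Dnmt1 and its helper Uhrf1 fell by 2.53 and 2.94, and the remodeller Hells by 4.10, from 9.97 to 10.45 in basal to 5.71 to 6.81 in aggregate arrays. Hmga2, a chromatin protein of embryonic tissues, fell by 3.61.

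**Figure D2:**
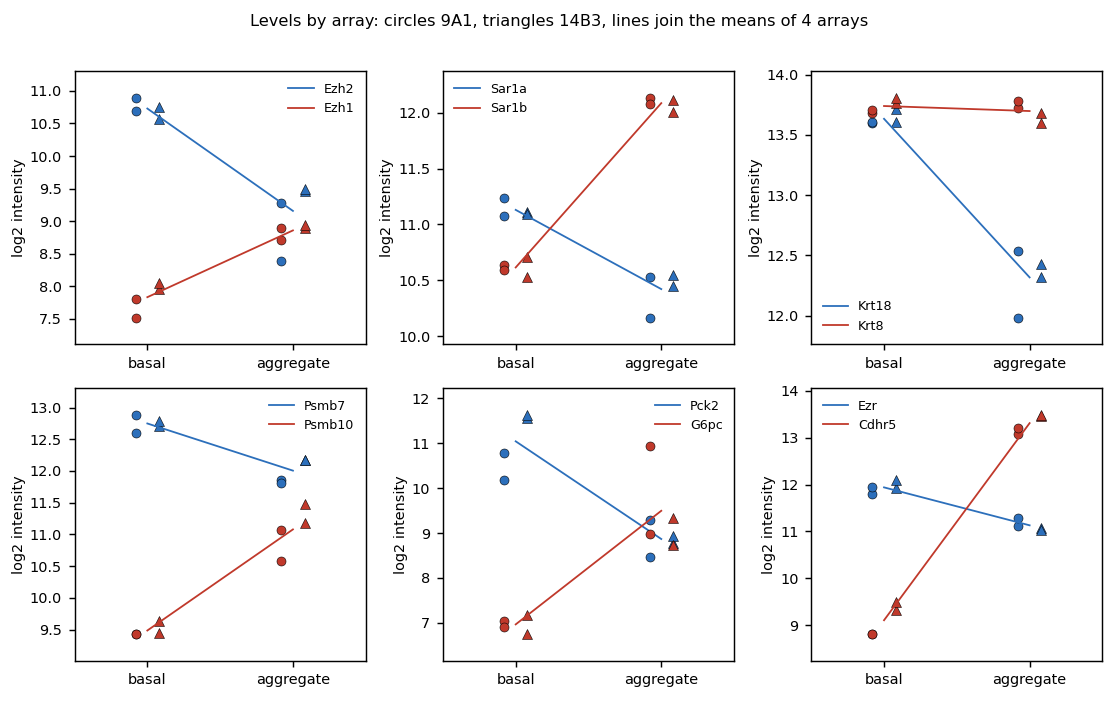
Log2 intensity on each array of 6 pairs of related genes or of genes from 1 pathway, with circles for 9A1, triangles for 14B3 and lines joining the means of 4 arrays. Ezh2 fell by 1.57 as Ezh1 rose by 1.03, from a basal level that may be background. Sar1a fell by 0.71 as Sar1b rose by 1.47, and Krt18 fell by 1.32 while Krt8 was at -0.04.

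Mitochondrial genes did not move as a block. The mitochondrial ribosome followed the cytosolic one, with 23 of 36 genes lower and 1 higher (median -0.38; 15 lower without basal 9A1 replicate 1), whereas 38 of 50 respiratory chain genes rose and 0 fell (median 0.41), and 39 of 40 genes of fatty acid oxidation in mitochondria and peroxisomes rose and 0 fell (median 1.22). Mrps28, a small subunit protein, was at 9.83, 9.44, 9.96 and 9.62 in basal and 8.64, 8.38, 8.68 and 8.58 in aggregates (-1.14 ± 0.14, SE, adjusted p = 2.81e-05). Ndufa6, a subunit of complex I, was at 10.61, 10.62, 10.78 and 10.85 in basal and 11.64, 11.87, 11.76 and 11.50 in aggregates (0.98 ± 0.11, SE, adjusted p = 1.36e-05). Neither gene's groups overlapped.

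Rises of the respiratory chain were modest and spread over its complexes. They covered 15 of 23 genes of complex I, 4 of 4 of complex II, 5 of 6 of complex III, 7 of 8 of complex IV and 7 of 8 of ATP synthase, and the medians of the 5 complexes lay between 0.38 and 0.53. The subunits Sdhd, Uqcrh, Cox8a and Atp5h rose by 0.68, 0.84, 0.73 and 0.73. In the tricarboxylic acid cycle and pyruvate entry list 15 of 26 genes rose and 3 fell (median 0.50). Pcx, which makes oxaloacetate from pyruvate, rose by 3.01 and the pyruvate dehydrogenase kinase Pdk2 by 2.03, both from basal levels that may be background. The isocitrate dehydrogenase genes Idh1 and Idh2 went apart, a pair chosen after its values were seen. Cytosolic Idh1 was at 11.27 to 11.85 in basal and 13.15 to 13.52 in aggregate arrays (1.64), and mitochondrial Idh2 at 10.71 to 10.99 and 8.94 to 9.77 (-1.64).

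**Figure D3:**
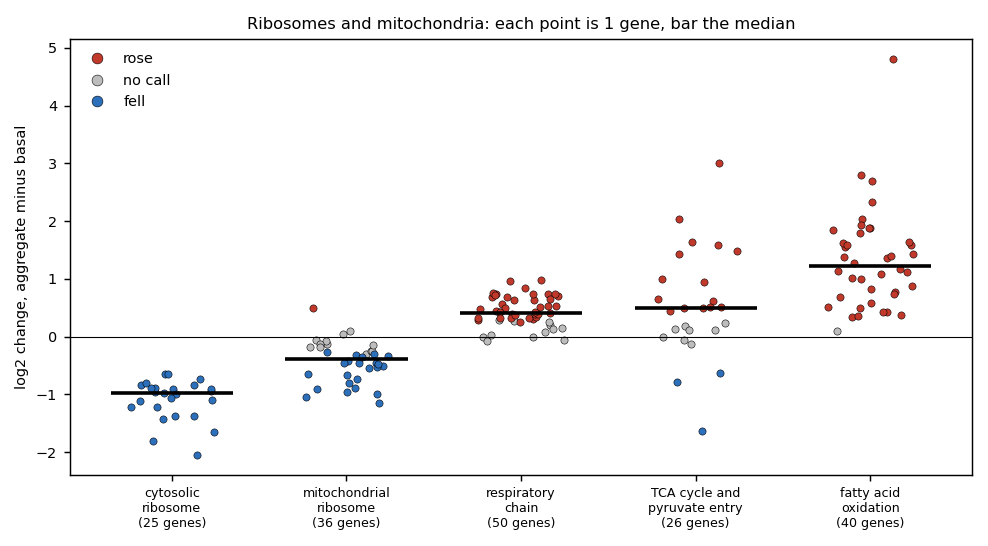
Log2 change of each gene (aggregate minus basal) in 5 lists, coloured by call, with bars at the medians of -0.97, -0.38, 0.41, 0.50 and 1.22 from left to right. The ribosomal lists lie mostly below 0 and the respiratory chain and fatty acid oxidation lists mostly above it.

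All 11 genes of the mitochondrial beta-oxidation spiral and its electron carriers rose, from 0.38 (Etfa) to 1.93 (Acaa2). Hadha, a subunit of the trifunctional protein that runs the later steps on long chains, was at 10.37, 10.19, 10.45 and 10.35 in basal and 12.05, 11.81, 11.70 and 11.54 in aggregates, without overlap (1.43 ± 0.10, SE, adjusted p = 3.66e-07). The carnitine carrier Slc25a20 and the inner membrane transferase Cpt2 rose by 2.04 and 1.88. Scp2, a peroxisomal thiolase and sterol carrier, rose by 2.81. Bdh1, which interconverts the ketone bodies, rose by 4.80 from a basal level of 6.37, which may be background.

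Triglyceride and lipoprotein assembly rose as a group, and fatty acid synthesis was mixed. Of 29 genes of fatty acid and triglyceride synthesis 19 rose and 2 fell (median 0.60; 4 fell with the replicate block). The 7 genes that assemble triglyceride into lipoprotein particles, grouped after their values were seen, all rose: Mttp by 5.36, Cideb by 3.51, Dgat1 by 3.06, Mogat2 by 2.90, Dgat2 by 2.54, Apob by 2.23 and Sar1b by 1.47. Mttp, the transfer protein that loads lipid onto apolipoprotein B, was at 7.63, 7.58, 7.72 and 7.39 in basal and 13.24, 13.22, 12.91 and 12.40 in aggregate arrays, 41.1-fold higher (adjusted p = 2.95e-10) from a level that may be background. Of 9 genes of fatty acid synthesis and desaturation 3 rose and 3 fell (5 fell with the replicate block). The synthase gene Fasn fell by 1.29, the desaturase Fads1 fell by 1.74 and the citrate lyase Acly by 0.64, whereas the elongase Elovl6 rose by 0.60 and the desaturase Scd2 by 0.41. The third rise was Scd1, a desaturase at 1.22 over both lines, 2.76 in 9A1 and -0.33 in 14B3, and the test of that difference passed (adjusted p = 0.000675).

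The route out of the endoplasmic reticulum split by step. Of 45 genes of protein export 17 rose and 16 fell (median -0.05, between -0.090 and -0.0092 without 1 array), and 9 or 10 fell without basal 14B3 replicate 2 or aggregate 9A1 replicate 1. The split into steps was made after the values were seen. At the entry step, the translocon, signal peptidase and oligosaccharyltransferase, 12 of 17 genes fell and 1 rose (median -0.40), with Ssr1 at -0.75, Spcs3 at -0.69, Sec61b at -0.62 and Stt3b at -0.59; Dad1 rose by 0.44. In the COPII coat, which buds vesicles towards the Golgi, 5 of 8 genes rose and 1 fell (median 0.48), and in the COPI coat, which returns them, 4 of 7 rose and 0 fell (median 0.27). Sar1b, the small GTPase of COPII that large lipoprotein particles need, was at 10.63, 10.59, 10.71 and 10.53 in basal and 12.13, 12.08, 12.01 and 12.12 in aggregates (1.47 ± 0.09, SE, adjusted p = 7.04e-08). Sar1a, its paralog, was at 11.24, 11.08, 11.12 and 11.09 in basal and 10.53, 10.17, 10.45 and 10.54 in aggregates (-0.71 ± 0.11, SE, adjusted p = 0.000162). The cultures overlapped for neither gene. The coat subunits Sec23a, Sec31a and Sec24d rose by 1.37, 0.85 and 0.71, while Sec23b was at 0.10 with no call.

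**Figure D4:**
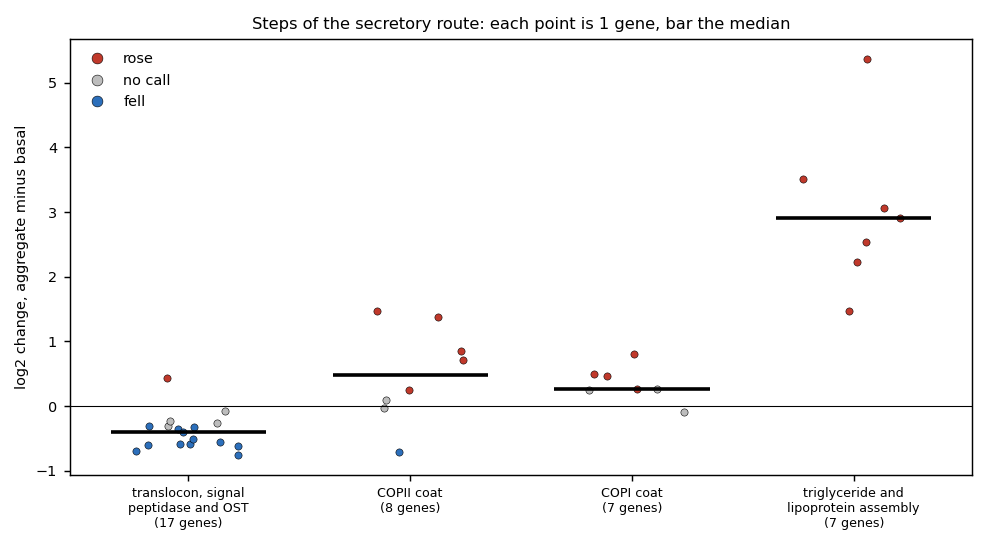
Log2 change of each gene (aggregate minus basal) at the entry step of the secretory route, in the COPII and COPI coats and in triglyceride and lipoprotein assembly, with bars at the medians of -0.40, 0.48, 0.27 and 2.90. At the entry step 12 of 17 genes fell, and all 7 assembly genes rose.

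More lysosomal genes rose than fell. Of 40 lysosomal genes 26 rose and 2 fell (median 0.61; 4 fell with the replicate block, 4 without aggregate 14B3 replicate 1, and 1 without basal 14B3 replicate 1, aggregate 9A1 replicate 2 or aggregate 14B3 replicate 2). Lipa, the acid lipase that frees fatty acids and cholesterol, was at 9.62, 9.57, 9.91 and 9.96 in basal and 11.86, 11.27, 11.71 and 11.59 in aggregates, without overlap (1.84 ± 0.15, SE, adjusted p = 6.76e-07). The sialidase Neu1 rose by 2.15. Of 24 autophagy genes 12 rose and 2 fell (median 0.33), and 0 or 1 fell when any of the 8 arrays was left out. Genes of the ATG8 family, whose products coat the autophagosome, rose in 4 of 5 cases. Gabarap went from 11.59 to 11.74 in basal to 12.86 to 13.03 in aggregate arrays (1.26) and Gabarapl2 rose by 0.97. Sesn1, an inhibitor of the growth kinase mTORC1, rose by 2.15.

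More genes of contraction and attachment fell than rose, and more apical genes rose than fell. Of 41 genes of actin contraction and stress fibres 19 fell and 6 rose (median -0.21), and of 30 integrin and focal adhesion genes 14 fell and 4 rose (median -0.25). Without basal 9A1 replicate 1, 9 of the latter fell, and 2 rose without basal 9A1 replicate 1, basal 14B3 replicate 1 or aggregate 9A1 replicate 1. The calponins Cnn3 and Cnn2, which bind actin filaments, fell by 4.22 and 2.59, while the myosin light chain kinase Mylk rose by 1.48. Cav2, a caveolin, and Fermt2, an activator of integrins, fell by 3.44 and 1.26, and the kinase Ptk2b rose by 1.04. Lims1 and Parva, which bind the integrin-linked kinase, fell by 0.92 and 1.14. Actb, cytoplasmic actin, was at -0.03 with no call.

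Of 45 genes of cell polarity and apical trafficking 24 rose and 8 fell (median 0.36). Cdhr5, a protocadherin that links the tips of microvilli, was at 8.81, 8.81, 9.32 and 9.50 in basal and 13.08, 13.21, 13.46 and 13.49 in aggregates, 18.4-fold higher (adjusted p = 2.18e-10). Its partners Myo7b and Ush1c rose by 2.16 and 2.08. The apical fusion protein Stx3 rose by 2.32, from 7.45 to 7.79 in basal to 9.71 to 10.21 in aggregate arrays, and the motor Myo5b by 2.36. The basal level of Stx3 may be background. The linkers between membrane and actin went down, all 3 of them: Rdx (radixin) fell by 2.85, Msn (moesin) by 2.46 and Ezr (ezrin) by 0.81. Ezr was at 11.80, 11.94, 11.92 and 12.10 in basal and 11.12, 11.28, 11.08 and 11.03 in aggregate arrays, without overlap. Slc9a3r1, the NHERF1 scaffold to which ezrin binds at the apical membrane, rose by 1.72.

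Keratins of simple epithelia were not lost together. Krt8 was at 13.68, 13.70, 13.77 and 13.81 in basal and 13.72, 13.78, 13.68 and 13.60 in aggregate arrays, which overlap (-0.04 ± 0.08, SE, adjusted p = 0.71). Krt18, a partner of it in filaments, was at 13.60, 13.61, 13.61 and 13.72 in basal and 12.54, 11.98, 12.32 and 12.43 in aggregates (-1.32 ± 0.12, SE, adjusted p = 2.05e-06). Krt7 fell by 2.29. Of 4 keratins of simple epithelia measured, 2 fell and 2 had no call, with a median of -0.79.

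Enterocyte genes had the highest median of the 36 lists. Of 38 enterocyte genes 28 rose and 0 fell, with a median of 2.24 that was 3.13 in 9A1 and 1.37 in 14B3. The retinol binding protein Rbp2 and the lipoprotein Apoa4 rose by 5.25 and 5.23, from basal levels that may be background. Cdx2, the intestinal homeobox factor, rose by 0.77 and was well above background in basal culture already, at 9.76 to 10.13. In the list of bile acid synthesis and transport 14 of 27 genes rose and 0 fell (median 0.34; 1 fell with the replicate block). Of 7 pumps of the apical or canalicular membrane 5 rose, among them Abcc2, Abcb1a and Abcg8 by 4.58, 4.31 and 3.24, while Abcb11, the bile salt export pump, was at 0.31 (adjusted p = 0.0508; 0.0239 with the replicate block; 0.0153 to 0.192 over the alternatives). Abcg5, the partner of Abcg8 in sterol export, was at 6.53, 6.60, 6.70 and 6.56 in basal and 13.02, 13.15, 13.04 and 12.85 in aggregates, 85.4-fold higher (adjusted p = 2.54e-12) from a level that may be background. Cyp7a1, the rate-limiting enzyme of bile acid synthesis, was at 7.45 to 7.67 in basal and 7.59 to 7.99 in aggregates, within background in both (0.20 ± 0.11, SE, adjusted p = 0.172). Of 8 enzymes of bile acid synthesis, Cyp7a1 included, 3 rose and 0 fell: Amacr, which inverts the side chain, by 2.15, Hsd3b7 by 0.68 and Akr1d1 by 0.44. The hydroxylases Cyp8b1 and Cyp27a1 were at 0.19 and 0.18 with no call.

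Conjugation of drugs and hormones rose in 27 of 35 genes and fell in 1 (median 0.86; 0 fell without basal 9A1 replicate 1, basal 9A1 replicate 2 or basal 14B3 replicate 2). In sulfation 5 of 7 genes rose (median 0.90). The transferases Sult1b1 and Sult1d1 rose by 5.95 and 5.62 from levels that may be background, and Papss2, which makes the activated sulfate they use, was at 7.76, 7.80, 9.01 and 8.98 in basal and 12.16, 12.66, 12.67 and 12.44 in aggregates (4.09 ± 0.13, SE, adjusted p = 5.23e-10). Papss1, the paralog, was at -0.30 with no call; without aggregate 9A1 replicate 2 or aggregate 14B3 replicate 1 its adjusted p was 0.0309 and 0.0154, in a range of 0.0154 to 0.297 over the alternatives.

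Of 51 genes of amino acid breakdown and the urea cycle 19 rose and 8 fell (median 0.18). Cps1, which commits ammonia to urea, was at 7.38, 7.57, 7.12 and 7.57 in basal and 11.78, 11.22, 10.84 and 10.30 in aggregates (3.62 ± 0.16, SE, adjusted p = 6.77e-09), from a level that may be background. The next enzyme Otc, chosen after its values were seen, the ornithine carrier Slc25a15 and the lyase Asl rose by 2.67, 2.26 and 0.99. Arg1, which releases urea in hepatocytes, was at 6.01 and 5.98, background in both cultures (-0.03). Cytosolic alanine aminotransferase Gpt rose by 2.50, and proline dehydrogenase Prodh fell by 1.52.

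In glucose output and glycogen 19 of 29 genes rose and 3 fell (median 0.67). G6pc, the glucose-6-phosphatase that releases free glucose, was at 7.04, 6.90, 6.74 and 7.18 in basal and 10.94, 8.98, 9.33 and 8.73 in aggregates (2.53 ± 0.33, SE, adjusted p = 4.09e-05), and its transporter Slc37a4 rose by 1.88. The basal level of G6pc may be background. The phosphatase Fbp2 rose by 2.90. Pck1, the cytosolic carboxykinase of the pathway, stayed at background (0.14, no call), and mitochondrial Pck2 was at 10.18, 10.78, 11.57 and 11.64 in basal and 9.30, 8.46, 8.77 and 8.94 in aggregates, a fall of 2.18 on the log2 scale (adjusted p = 9.04e-07). Khk and Tkfc, kinases of fructose breakdown, rose by 1.05 and 3.59. The glycogen phosphorylase paralogs went apart: Pygb, the brain form, fell by 0.60, and Pygl, the liver form, rose by 0.41 within background.

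Of 33 clotting genes 15 rose and 5 fell (median 0.29). The median level of the list was 7.15 in basal and 7.50 in aggregate culture, within background in both. For the 8 members above the median level of all genes the median change was 0.03. Of the fibrinogen chains Fga and Fgb rose by 4.08 and 2.61. Fgg was at 0.45 with no call (adjusted p = 0.0947; 0.00453 without aggregate 9A1 replicate 2, and up to 0.366 over the alternatives). Of 37 genes of iron, copper and zinc 21 rose and 1 fell (median 0.41; 2 fell without basal 9A1 replicate 1). Slc40a1, ferroportin, the iron exporter, was at 9.03, 9.61, 8.85 and 9.52 in basal and 12.73, 13.05, 12.81 and 12.70 in aggregates (3.57 ± 0.18, SE, adjusted p = 2.27e-08). The haem carrier Hpx rose by 4.31, and the metallothioneins Mt1 and Mt2, which bind zinc and copper, by 2.25 and 2.38.

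Promoters of genes that rose in these gut and liver lists were searched for GTTAAT, the core recognised by the hepatocyte nuclear factor HNF1, and for CAAAGTCCA, a site form of HNF4, on both strands. The 4 stretches shown hold GTTAAT within 60 bases of the start, in capitals on either strand and without overlaps. They are examples that hold the motif, which most promoters of these lists did not.
Fga, chr3:83026053-83026152, plus strand: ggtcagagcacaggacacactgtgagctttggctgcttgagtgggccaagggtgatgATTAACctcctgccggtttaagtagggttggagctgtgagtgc
Fgb, chr3:83049864-83049963, minus strand: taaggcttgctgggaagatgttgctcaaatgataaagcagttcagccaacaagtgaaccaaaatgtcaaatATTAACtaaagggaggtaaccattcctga
Khk, chr5:30921459-30921558, plus strand: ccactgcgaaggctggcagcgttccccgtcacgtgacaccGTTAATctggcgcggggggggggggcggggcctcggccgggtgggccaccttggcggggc
Ugt2a3, chr5:87337196-87337295, minus strand: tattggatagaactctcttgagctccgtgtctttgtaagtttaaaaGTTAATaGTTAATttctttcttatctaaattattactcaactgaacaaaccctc

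Ugt2a3, a glucuronosyltransferase, carries 2 copies and rose by 3.09. Over 118 genes that rose and had a promoter in the table, 14 held GTTAAT, 11.9% against 5.00% of the 9882 tested genes, and 7.20% of all genes in the table. CAAAGTCCA was found in 2 of the 118, 1.69% against 0.557%. GTTAAT stood in 5.35% of the promoters of all 2336 genes that rose and had one, so its share there was near the background.

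Signalling lists were mixed. Of 27 p53 targets 15 fell and 6 rose (median -0.40). Mdm2, the ligase that p53 induces to limit itself, was at 12.51, 12.47, 11.68 and 11.88 in basal and 10.73, 10.40, 10.91 and 10.62 in aggregates (-1.47 ± 0.12, SE, adjusted p = 9.23e-07). The targets Phlda3, Zmat3, Aen and Ccng1 fell by 1.66, 1.40, 1.35 and 1.30. The largest of the 6 rises was 2.15, that of Sesn1, named above among the autophagy genes. Cdkn1a, the p53-induced cell cycle inhibitor p21, was at 12.71, 12.49, 12.34 and 12.18 in basal and 12.91, 13.02, 12.76 and 12.22 in aggregates, which overlap (0.30 ± 0.12, SE, adjusted p = 0.0643). With the replicate block its adjusted p was 0.0385, and 0.00576 without aggregate 14B3 replicate 2, in a range of 0.00576 to 0.382 over the alternatives.

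Among 29 genes of growth factor feedback 12 fell and 4 rose (7 rose with a replicate block shared by the lines). The median of -0.04 was -0.22 without aggregate 14B3 replicate 1 and -0.10 without aggregate 14B3 replicate 2, and between -0.067 and -0.059 without basal 9A1 replicate 1, aggregate 9A1 replicate 1 or aggregate 9A1 replicate 2. Myc, which drives growth and ribosome genes, fell by 2.26 and Fosl1 by 1.63. Erbb3, a partner receptor of the ErbB family, was at 6.996, 7.42, 7.24 and 7.45 in basal and 11.42, 11.42, 11.39 and 11.04 in aggregates, 16.5-fold higher from a level that may be background. Erbb2 rose by 1.07, whereas Egfr was at 0.08 with no call. Of 19 clock genes 8 rose and 3 fell (median 0.25). Dbp, an output factor of the clock, was at 7.59, 8.002, 7.64 and 8.41 in basal and 9.01, 9.53, 9.77 and 9.97 in aggregates (1.66 ± 0.23, SE, adjusted p = 6.91e-05), and Nr1d1, a repressor within the clock, rose by 1.29. The hour of harvest was not given in the sources used here.

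Of 42 inflammatory genes 9 rose and 10 fell (median 0.09; 0.03 without basal 14B3 replicate 1 and 0.053 without aggregate 9A1 replicate 1), near the background of all genes in each direction. Ccl25, a chemokine of the small intestine, rose by 4.76, and Ccl9 and the adhesion molecule Vcam1 fell by 2.55 and 2.39. Antigen presentation rose in 12 of 21 genes and fell in 1 (median 0.61), with the class I chain H2-D1 at 2.27, B2m at 1.22 and the peptide loading factor Tapbp at 2.56. Of 31 amino acid transporters and ATF4 targets 12 fell and 6 rose, and the median of -0.02 became 0.05 without basal 9A1 replicate 2 or aggregate 14B3 replicate 1, 0.01 without basal 14B3 replicate 2 and 0.04 without aggregate 9A1 replicate 2. Asns, which makes asparagine, was at 11.31, 11.63, 12.47 and 12.65 in basal and 9.56, 9.44, 10.18 and 10.50 in aggregates (-2.10 ± 0.30, SE, adjusted p = 8.58e-05). The serine enzyme Psph and the transporter Slc7a5 fell by 2.28 and 2.17. Ddit3, the stress factor CHOP, which ATF4 also induces, moved the other way, from 8.64, 8.58, 8.93 and 9.74 to 11.07, 10.96, 10.97 and 10.61 (1.93 ± 0.15, SE, adjusted p = 7.94e-07), without overlap. The ATF4 composite motif TGATGNAAT was in 0 of the 10 promoters of list members that fell, against 0.526% of the tested genes. With so rare a motif and so few promoters, this count cannot tell whether the list differs from other genes.

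At the level of list medians the lines mostly moved in the same direction. Among called genes 99.4% of the rises and 99.4% of the falls had the same sign in 9A1 and 14B3. The calls rest on the change averaged over the lines, which favours genes of like sign. These shares therefore cannot tell how alike the lines were. The test of a different response, with few arrays per line and culture, was passed by 58 of the 12393 genes. List medians, which do not depend on the calls, had the same sign in both lines for 35 of 36 lists. The exception was the list of amino acid transporters and ATF4 targets, at 0.10 in 9A1 and -0.47 in 14B3. The size of the response was less alike among the 38 enterocyte genes, of which 6 passed the test of a different response. The list medians were larger in size in 9A1 for 27 of the 36 lists, which was not tested.

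**Figure D5:**
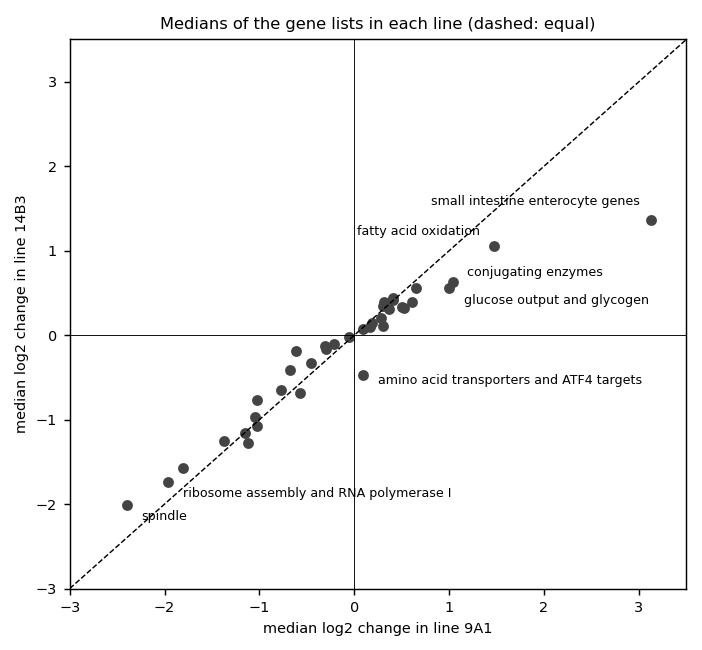
Median log2 change of each list in line 9A1 (horizontal axis) and line 14B3 (vertical axis), 1 point per list, with the dashed line marking equal changes. Enterocyte genes stand farthest to the right of it, at 3.13 in 9A1 and 1.37 in 14B3.

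Small changes could be precise. Among genes that moved by under 1 log2 unit, those with the largest moderated t included the rises of Atraid (0.99), of the vesicle fusion gene Vti1b (0.94), of the succinyl-CoA ligase gene Suclg2 (0.99) and of the kinase-binding gene Tprkb (0.94), and the falls of the poly(A) binding protein Pabpc1 (-0.97), the ribosome assembly gene Nop53 (-0.96), Btf3 (-0.93) and the initiation factor subunit Eif3h (-0.998). Each had a standard error of 0.08 or 0.09 and an adjusted p from limma between 1.76e-06 and 2.97e-06. Few genes had an interval narrow enough to bound the change near 0. In all, 429 of the 12393 genes, 3.46%, had a 95% interval within 0.25 log2 units of 0. Krt8 was among those with the narrowest intervals, as were the exonuclease gene Eri3 (-0.01), Dip2b (0.05), Rrm2b (-0.06), the endophilin gene Sh3gl1 (-0.06) and the phosphatase subunit gene Ppp2r2d (0.03).

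Probe sets of a gene mostly agreed. Of 2018 genes with at least 2 called probe sets, 53 had calls in both directions, 2.63%, and 9 of these by at least 0.5 log2 units each. Mtm1, the lipid phosphatase myotubularin, fell by 3.10 and 3.85 with its brighter probe sets and rose by 1.72 with the dimmest. Ppm1b, a protein phosphatase, rose by 0.66 with the probe set of highest signal and fell by 0.85 with another. The cause of such disagreements was not tested.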

How the data were processed

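RNA (5 ug a sample, per the labels' protocols) was measured on 1 microarray a sample. The deposited values are linear signal intensities that the authors made by RMA in R 2.3.1, per the submitters' processing notes, a method that quantile-normalises the arrays together, so a change in total RNA per cell does not show. The array medians were 268 to 281. Of 22690 probe sets, 20380 have 1 gene symbol, 691 several, 1555 none, and 64 are controls; the brightest probe set over all arrays stood for each of 12393 genes.

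Values deposited by the authors as intensities were turned to log2 here and fitted with limma 3.58.1 under R 4.3.3, calling lmFit and then eBayes. The model held 6 group means, 1 per combination of line and culture, which left 6 residual degrees of freedom; the residual SD had a median of 0.170 over genes. The contrast was aggregate minus basal, averaged over the lines, two-sided, with Benjamini-Hochberg adjustment over all genes and a threshold of 0.05, and the same fit gave the difference between the lines. Tables and figures used Python 3.11.15 and matplotlib 3.10.9. The script was tested on simulated data with known changes. Errors are standard errors of the contrast, whose precision is set by how few arrays there are.

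The members, gene lists and markers were chosen with earlier results of these data known, and subgroups of lists (complexes, paralog and isoenzyme pairs, single steps) were formed after their values were seen, so their counts are descriptions without a set test. Named were, in each list, the called genes that moved most in the main direction (2 genes) and the other (1 gene) without overlap of the arrays and alike in both lines, leaving out the 6 largest rises and falls of all genes; the small changes with the largest moderated t; the genes with the largest change in linear intensity; the narrowest intervals around 0; genes whose probe sets disagree; and members of complexes. Differences between replicates 2 and 1 were compared across genes. Between the lines r was 0.57 in basal and 0.27 in aggregate culture. Between the cultures of a line it was 0.10 and 0.14, and between cultures of different lines 0.16 and 0.11. The values thus do not show that the numbers pair arrays within a line. The main fit, which gave the calls and errors above, held no replicate block. The replicate block, an alternative, fits the numbers within each line, and a block shared by the lines was added after seeing the data. Alternatives were the replicate block, fits of 8 arrays, each array left out, other scalings, an offset of 32, a filter on dim genes, the mean of the probe sets and another prior. Promoter sequences are from RefSeq, build GRCm38.p6.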

Additional observations from a re-analysis of the deposited data

Results flagged for a closer look

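The response to aggregate culture differed between the lines for 6 genes named or grouped here, by limma's test of the difference itself over all 12393 genes. The difference is given as the change in 14B3 minus the change in 9A1. Heph, a copper-dependent iron oxidase of the gut, rose by 4.10 in 9A1 and was at 0.41 in 14B3, a difference of -3.68 (adjusted p = 8.4e-05). Scd1, the stearoyl-CoA desaturase, was at 2.76 and -0.33, a difference of -3.10 (adjusted p = 0.000675). Csf1r, a macrophage receptor, was at 2.21 and 0.75, a difference of -1.46 (adjusted p = 0.00961). Fabp1, a fatty acid binding protein of liver and gut, was at 7.43 and 4.29, a difference of -3.14 (adjusted p = 0.0174). Slc37a4, the glucose-6-phosphate transporter, was at 2.52 and 1.24, a difference of -1.28 (adjusted p = 0.0254). Myo5b, a motor of apical vesicles, was at 3.02 and 1.69, a difference of -1.33 (adjusted p = 0.0474). In each of these genes the change was higher in 9A1, and each line is 2 arrays a culture.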

How the results depend on the processing

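The counts of genes higher in aggregate than in basal culture (2841) and of genes lower in aggregate than in basal culture (2894) stayed within 1.5 times under all 18 alternatives. With the replicate block within each line they were 3423 higher and 3096 lower, with the replicate block shared by the lines, chosen after seeing the data, 3597 higher and 3147 lower, and over the 8 fits without 1 array they ran from 2350 to 2904 higher and from 2530 to 2786 lower. Higher genes made up 46.4% to 53.3% of the calls. Of 397 named or grouped genes 343 were called, 300 of these under every alternative in which they were tested. A gene that the filter on dim genes left out was not tested there and did not count as lost. The call was lost under at least 1 alternative for 41 genes, and 22 without a call gained one. The mean of all probe sets turned the sign of Zwint (-0.50), Prkg2 (0.081) and Pnkd (-0.082) and put the median of the list of protein export from the endoplasmic reticulum at 0.10. The filter on dim genes tested 6196 genes, so list counts were lower there by construction. It also moved list medians by over 1.5 times: bile acid synthesis and transport to 1.63, clotting to 0.03, p53 targets to -0.69, conjugating enzymes to 1.33, glucose output to 1.07, antigen presentation to 1.02, amino acid breakdown to 0.29, inflammatory genes to 0.19, actin contraction to -0.37, growth factor feedback to -0.29 and ATF4 targets to -0.28. The mean of the probe sets put the chromatin list at -0.48. Neither block moved any other list count by over 1.5 times than those given beside the lists. Levels near background bound the folds of genes that start or end there.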
